A study of Mus musculus with 2 samples.

Results

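The 9 genes described here, Cpt1a, Cpt2, Acadvl, Acadl, Acadm, Hadha, Hadhb, Decr1 and Ehhadh, encode enzymes of fatty acid oxidation. They were chosen by name, with earlier results of these data known. Every probe set whose only gene symbol in the platform annotation was 1 of these names was taken. This gave 16 probe sets for 9 of the 18193 genes with a probe set of their own. RNA came from G1E cells, a mouse erythroid progenitor line without GATA-1, carrying ER-GATA-1(V205G), in which a GATA-1 mutant defective in binding its cofactor FOG-1 is joined to an estradiol-responsive receptor domain. The 2 arrays were 1 of cells given 1 µM estradiol for 24 h, which activates the fusion protein, and 1 of cells taken before treatment. Both groups carried the fusion and lacked GATA-1, and neither cells without the fusion nor untreated cells at 24 h were among the samples, so that effects of the activated mutant, of estradiol and of time in culture cannot be told apart. With 1 array per group there is no p-value and no spread between cultures for any value below.

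Mitochondria break fatty acids down 2 carbons at a time in a repeating cycle of dehydrogenation, hydration, a second dehydrogenation and thiolytic cleavage, which yields acetyl-CoA and reduced cofactors. Long chains enter the organelle only as carnitine esters, and the enzyme that makes those esters is the main point of control of the pathway, held back by malonyl-CoA. Fatty acid oxidation has been studied in blood stem cells for its part in self-renewal, and mature red cells, which lose their mitochondria, cannot carry it out.

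The deposited values were linear signal intensities. A probe set was called measured where both signals reached a floor of 95.2, the 50th percentile of all signals, and each gene was represented by the probe set with the highest mean signal. The spread used to read a log2 ratio of estradiol over untreated was the pooled SD between measured probe sets of the same gene, 0.30 for dim genes (mean signal up to 579), 0.25 for those between and 0.20 for bright genes (above 1335). It covers probe noise and transcript forms, and not differences between cultures. The bands were set on the mean signal of a gene over its measured probe sets. Each ratio was placed in a band by the signal of its own probe set. Of 45101 probe sets per array, the share at or above the floor among those that are not controls was 50.9% with estradiol and 49.2% untreated. The median log2 ratio of the 10240 measured genes was 0.00. Scaling the arrays to a common median in place of a common trimmed mean moved all ratios by -0.11. A log2 ratio of that size is therefore no larger than the effect of the scaling.

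By brightest probe set Cpt1a and Acadm read lower with estradiol beyond 2 SD between probe sets, on 1 array per group. The other measured fatty acid oxidation genes lay within 2 SD of no difference. Of the 9 genes 8 were measured, and 0 of them were higher with estradiol by 2-fold or more, where 2.04% of all measured genes were. Likewise 0 were lower by 2-fold or more, where 1.10% of all measured genes were. At those shares fewer than 1 of 8 genes would be past 2-fold, so these counts say nothing particular about the members. Log2 ratios ran from -0.59 for Cpt1a to 0.11 for Decr1, with a median of -0.07. Of the 8 genes 6 were below 0, against 49.9% of all measured genes, and of their 14 measured probe sets 8 were. Most of these gene ratios, and the median, were no larger than that shift between scalings. The median stayed below 0 under the alternatives in scaling, floor and probe set, from -0.18 to -0.03. At that size, and without replicates, the count is not read as a direction. Beyond 2 SD lay 2 of 8, Cpt1a and Acadm, both lower with estradiol, where 7.23% of all measured genes were lower by that limit. Cpt1a passes the limit for the signal of its brightest probe set, and not that for its mean over probe sets. At that share fewer than 1 of 8 would be lower, but without replicates so small a count is not shown to be particular to the members. No member was higher beyond 2 SD, where 8.62% of all measured genes were. Ehhadh was below the floor on both arrays. In RNA from a whole culture, fewer cells of a type and less RNA per cell cannot be told apart.

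**Figure D1:**
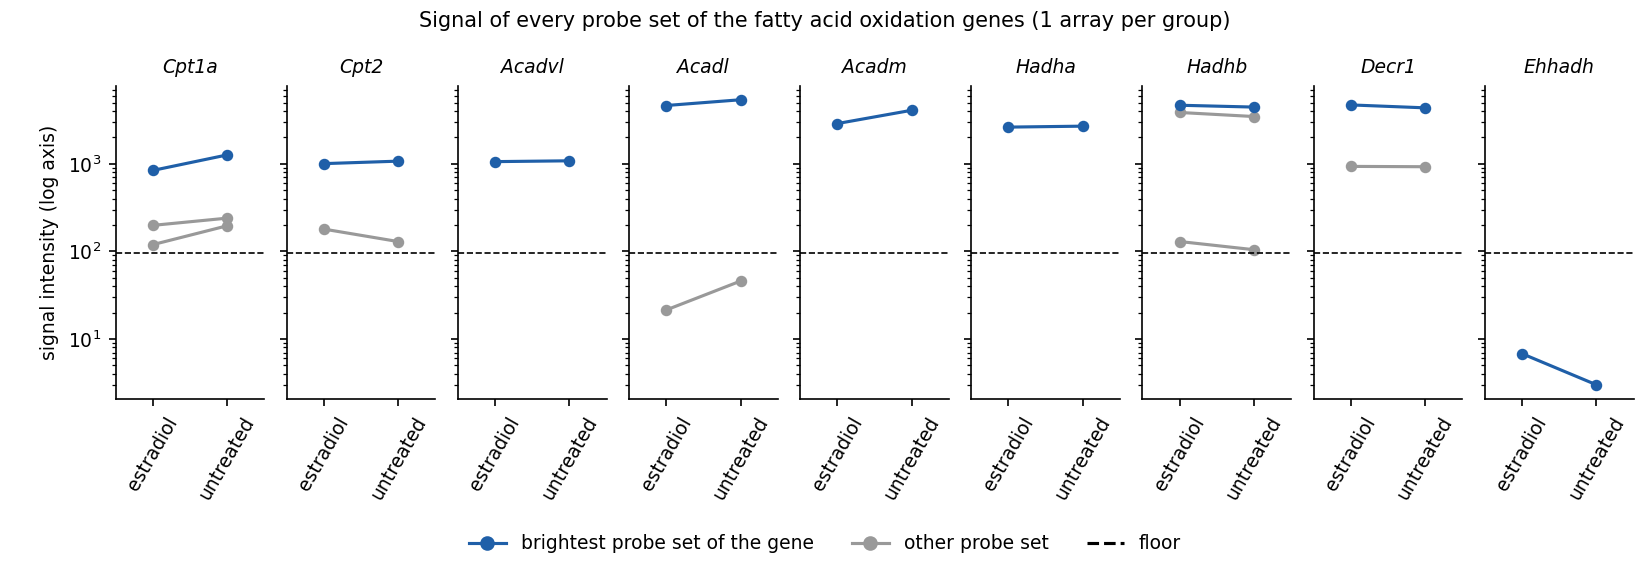
Signal intensity (log axis) of all 16 probe sets of the 9 genes on the estradiol array and the untreated array, 1 panel per gene, with lines joining the 2 signals of a probe set. The dashed line is the floor of 95.2. The lines of Cpt1a and Acadm slope upward toward the untreated array, and most others above the floor are close to level. Below the floor lie the second Acadl line, which slopes upward more steeply, and the Ehhadh line, which slopes steeply downward.

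Promoter sequences are given for 4 genes: for Cpt1a and Acadm, which had the lowest ratios, for Acadvl, whose window alone held a GATA motif, and for Hadhb, whose window overlaps that of Hadha. They are RefSeq windows of 300 bases on build GRCm38.p6, from 250 bases before to 50 after the start site, written 5′ to 3′ on the gene's strand, and windows for 8 of the 9 genes matched by symbol. The motifs searched on both strands were AGATAA and TGATAA, forms of the GATA factor motif, and AGGTCA, the core element read by nuclear receptors such as the PPARs. Capitals mark the matches, which read TTATCT or TGACCT where the motif lies on the opposite strand.
Cpt1a, chr19:3323051-3323350, plus strand: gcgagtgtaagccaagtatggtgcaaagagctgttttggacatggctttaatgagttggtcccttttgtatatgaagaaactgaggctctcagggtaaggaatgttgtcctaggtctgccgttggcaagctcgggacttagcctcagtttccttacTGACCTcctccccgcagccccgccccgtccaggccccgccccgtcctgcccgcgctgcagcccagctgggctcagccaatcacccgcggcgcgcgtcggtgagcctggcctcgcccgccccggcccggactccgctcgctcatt
Acadm, chr3:153944594-153944893, minus strand: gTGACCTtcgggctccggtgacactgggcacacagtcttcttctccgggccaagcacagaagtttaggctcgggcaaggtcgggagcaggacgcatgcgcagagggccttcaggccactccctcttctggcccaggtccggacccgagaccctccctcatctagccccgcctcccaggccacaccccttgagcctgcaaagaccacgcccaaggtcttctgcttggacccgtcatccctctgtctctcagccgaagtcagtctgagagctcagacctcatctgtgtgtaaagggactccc
Acadvl, chr11:70015379-70015678, minus strand: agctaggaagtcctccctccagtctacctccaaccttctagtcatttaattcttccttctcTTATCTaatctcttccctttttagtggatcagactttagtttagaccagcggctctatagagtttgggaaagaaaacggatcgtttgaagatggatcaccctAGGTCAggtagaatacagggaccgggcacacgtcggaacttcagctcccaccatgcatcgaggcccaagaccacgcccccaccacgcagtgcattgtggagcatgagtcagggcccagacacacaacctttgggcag
Hadhb, chr5:30155003-30155302, plus strand: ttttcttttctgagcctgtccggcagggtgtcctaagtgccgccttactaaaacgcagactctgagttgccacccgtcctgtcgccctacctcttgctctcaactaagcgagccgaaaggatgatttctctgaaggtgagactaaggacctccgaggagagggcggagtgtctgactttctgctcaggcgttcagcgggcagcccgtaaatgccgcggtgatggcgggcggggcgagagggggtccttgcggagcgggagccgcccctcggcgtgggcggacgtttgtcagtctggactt

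A GATA motif was found in 1 of the 8 windows, that of Acadvl at position -189 from the start site on the opposite strand, and in 18.6% of all 32851 promoter windows. AGGTCA was found in 3 of the 8, against 16.3% of all windows. It lay at -87 in Acadvl on the gene's strand, and at -94 in Cpt1a and -249 in Acadm on the opposite strand. No match overlapped another. The windows of Cpt2, Acadl, Hadha, Hadhb and Ehhadh held neither motif. A match in these letters is a description of the sequence and does not show binding, and elements outside the window were not searched. Acadvl, with both motifs, had a log2 ratio of -0.03, while Cpt1a and Acadm, with AGGTCA, had -0.59 and -0.50. Of the genes with neither motif, Cpt2 had -0.09, Acadl -0.22, Hadha -0.04 and Hadhb 0.07, and Ehhadh had no ratio. A link between motifs and ratios was not tested.

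The carnitine palmitoyltransferases, which carry long-chain fatty acids into the mitochondrion, were read by 5 probe sets. Cpt1a encodes the outer-membrane enzyme that forms the carnitine esters and responds to malonyl-CoA. Its brightest probe set had a signal of 839 with estradiol and 1261 untreated. The log2 ratio of -0.59, or just over 1.5-fold lower, was beyond the 2 SD of 0.50 for the signal of that probe set. By the mean over its 3 probe sets Cpt1a falls among dim genes, and -0.589 lies within their 2 SD of 0.597. Its other probe sets read 198 with estradiol and 239 untreated (log2 ratio -0.27), and 119 with estradiol and 196 untreated (-0.72). All 3 thus had lower signals with estradiol, and the ratio of the middle one lay within the 2 SD of 0.60 for dim probe sets. The dimmer pair carry the suffix that Affymetrix gives to probe sets whose probes may also match other transcripts. Among all measured genes 4.79% had a log2 ratio as low as that of Cpt1a or lower, and at 1.5-fold it was the 1 member lower, where 4.85% of all measured genes were, and 0 members were higher, where 7.11% were.

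Cpt2 encodes the inner-membrane enzyme that turns the carnitine esters back into acyl-CoA. Its brighter probe set read 1003 with estradiol and 1071 untreated, a log2 ratio of -0.09, within 2 SD. The other, a probe set of the cross-matching kind, read 180 with estradiol and 129 untreated, a log2 ratio of 0.47, so the pair disagree in sign and Cpt2 has no settled direction. The log2 ratio of Cpt1a minus that of Cpt2 was -0.49, which is within the 0.71 that 2 SD of such a difference allows. The 2 transferases are therefore not shown to differ in response.

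The acyl-CoA dehydrogenases open each turn of the cycle and divide the fatty acids among them by chain length. Acadvl, the very-long-chain enzyme of the inner membrane, read 1058 with estradiol and 1081 untreated, a log2 ratio of -0.03. Acadl, the long-chain enzyme, read 4622 with estradiol and 5379 untreated, a log2 ratio of -0.22 that lies within the 2 SD of 0.40 for bright genes. Its second probe set was below the floor on both arrays, at 21.4 with estradiol and 45.8 untreated. Acadm, the medium-chain enzyme whose loss causes the most common inherited defect of the pathway in people, read 2876 with estradiol and 4080 untreated. Its log2 ratio of -0.50, or 1.42-fold lower, was beyond the 2 SD of 0.40, and 6.75% of measured genes were as low or lower. Acadm has a single probe set, so no second reading checks this value.

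The order of the 3 ratios followed chain length, with Acadvl nearest 0 and Acadm lowest, but the neighbours were not separated by the spread. Acadm lay below Acadl by a log2 difference of -0.29, where 2 SD of a difference is 0.56, and below Acadvl by -0.47, where it is 0.64. The short-chain enzyme gene Acads, which is not among the 9 and was added after its values were seen, read 1031 with estradiol and 1191 untreated (log2 ratio -0.21), so the order did not continue to the shortest chains.

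**Figure D2:**
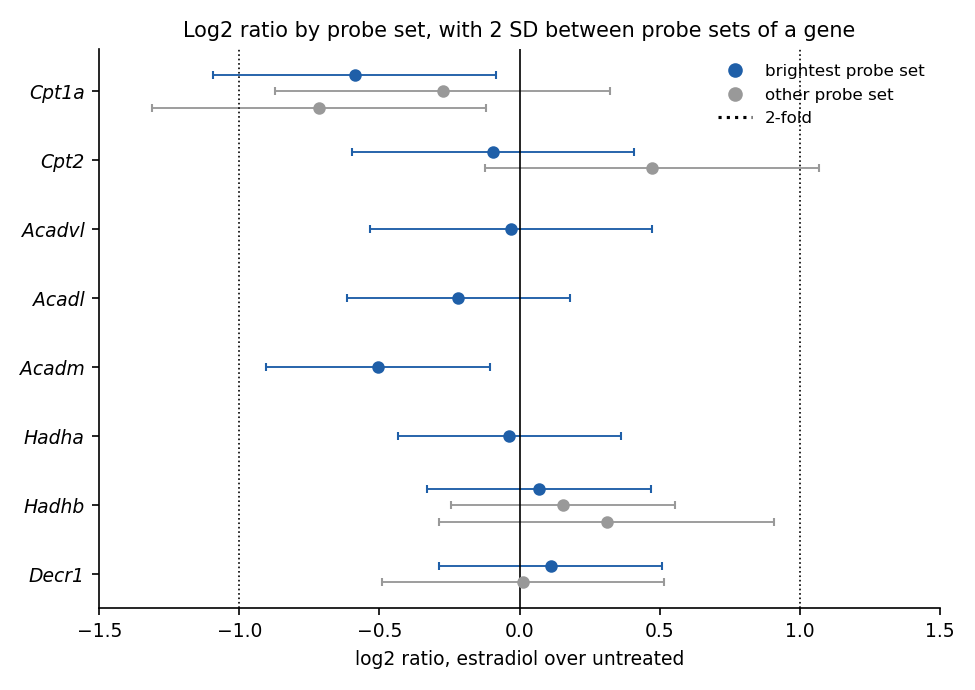
Log2 ratio of estradiol over untreated for the 14 measured probe sets of 8 genes, with genes down the page in the order of the pathway. Bars are 2 SD between probe sets of a gene in the same band of signal, and dotted lines mark 2-fold. The bars of Acadm, of the brightest probe set of Cpt1a and of 1 dimmer Cpt1a probe set stay below 0, and the bars of all others cross it.

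The mitochondrial trifunctional protein carries out the last 3 steps of the cycle for long chains. Hadha, its alpha subunit with the hydratase and hydroxyacyl-CoA dehydrogenase activities, read 2620 with estradiol and 2687 untreated, a log2 ratio of -0.04. Hadhb, the beta subunit with the thiolase activity, read 4656 with estradiol and 4436 untreated on its brightest probe set, 1 of the cross-matching kind, a log2 ratio of 0.07 that became -0.04 with a common median. Its other probe sets read 3851 with estradiol and 3460 untreated (0.15), and 130 with estradiol and 104 untreated (0.31), the last close to the floor. The subunit genes lie head to head, and their promoter windows share 228 of 300 bases. Their log2 ratios differed by -0.11 (Hadha minus Hadhb), within the 0.56 that 2 SD of a difference allows.

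Decr1 and Ehhadh serve special cases of the pathway. Decr1 encodes the mitochondrial 2,4-dienoyl-CoA reductase, which lets unsaturated fatty acids through the cycle. It read 4695 with estradiol and 4348 untreated on the brighter probe set (log2 ratio 0.11, and -0.0015 with a common median) and 933 with estradiol and 925 untreated on the other (0.01). Both probe sets were nearly level. Ehhadh, the peroxisomal bifunctional enzyme and a gene that PPARs induce in liver, read 6.80 with estradiol and 3.0 untreated, far below the floor, so no ratio was formed. Whether its transcript was absent cannot be said from 1 probe set.

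**Figure D3:**
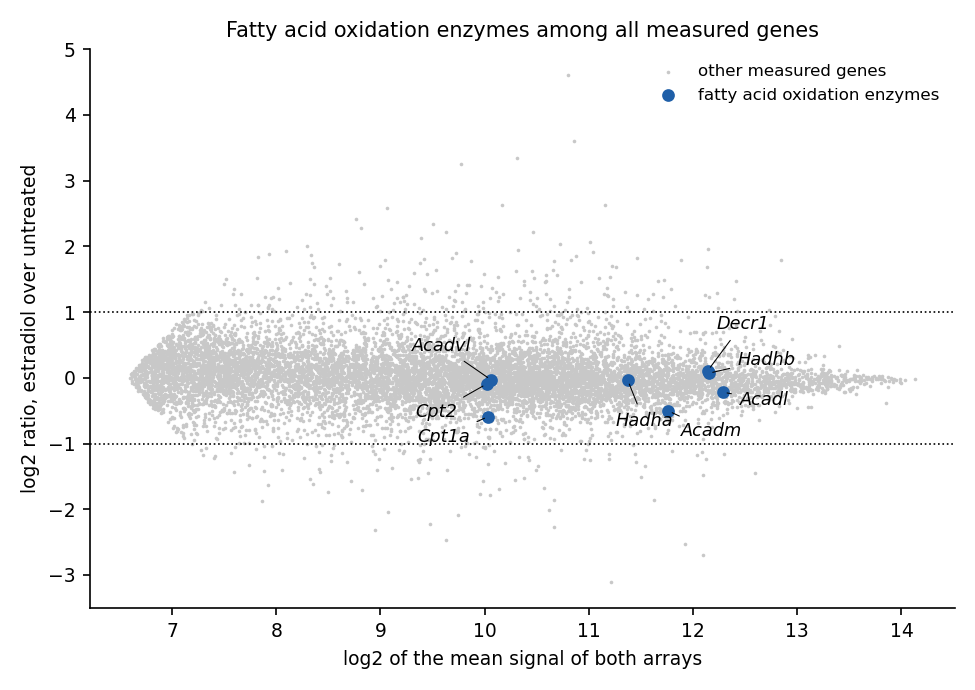
Log2 ratio of estradiol over untreated against the log2 of the mean signal for the 10240 measured genes (grey), with the 8 measured fatty acid oxidation genes in blue. The blue points lie between -0.59 and 0.11, inside the dotted lines at 2-fold, and Cpt1a and Acadm lie lowest.

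Other genes of the pathway and of its surroundings were read from 7 lists, also chosen with earlier results of these data known. In the carnitine shuttle and fatty acid activation list, 9 of the 12 genes on the array were measured and 8 of those had a log2 ratio below 0, where 49.9% of all measured genes had, with a median of -0.27 against 0.00 for all. None passed 2-fold, and 1 was lower beyond 2 SD, where 7.23% of all measured genes were. That gene was Acsl3, a long-chain acyl-CoA synthetase, which read 950 with estradiol and 1777 untreated (log2 ratio -0.90, and -0.59 and -0.76 on its other probe sets). The brightest of these is of the cross-matching kind and the others are not. Acsl4, which prefers arachidonate, had a log2 ratio of -0.38, with -0.65 and -0.50 on its other probe sets. The -0.65 was beyond 2 SD, on a probe set of the cross-matching kind, and the other 2 ratios were within it. Crat, carnitine acetyltransferase, was the exception in sign at 0.26 on a probe set of the cross-matching kind, with -0.12 on its second measured probe set. Slc27a1, a fatty acid transport protein gene, was next at -0.16, with a bound of 0.34 on its second probe set. Slc22a5, added after its values were seen, had -0.16, with 0.40 on its second probe set. The count below 0 is by brightest probe set, and without replicates it is not shown to be particular to the list. Slc25a20, which encodes the carnitine-acylcarnitine carrier between the steps of Cpt1a and Cpt2 and was added after its values were seen, read 522 with estradiol and 611 untreated (log2 ratio -0.23).

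Among 20 other mitochondrial beta-oxidation genes, all measured, 13 had a log2 ratio below 0, where 49.9% of all measured genes had. The median was -0.17, and none passed 2-fold. Beyond 2 SD 2 were lower and 3 higher, where 7.23% and 8.62% of all measured genes were. Counts this small say nothing particular about the list. Acaa2, the matrix thiolase, was the lowest and read 706 with estradiol and 1252 untreated (log2 ratio -0.83). Its other probe sets had -0.82 and -0.99, so the 3 readings were close. Hadh, the matrix hydroxyacyl-CoA dehydrogenase for medium and short chains, read 3206 with estradiol and 4266 untreated (log2 ratio -0.41), with -0.35 and -0.13 on its other probe sets. Echs1, the short-chain hydratase, added after its values were seen, read 1656 with estradiol and 2125 untreated (-0.36).

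Set beside the trifunctional protein, the soluble enzymes of the same 3 steps had these log2 ratios: -0.36 for Echs1, -0.41 for Hadh and -0.83 for Acaa2, against -0.04 for Hadha and 0.07 for Hadhb. These genes were picked after their values were seen. The differences of Echs1 and Hadh from Hadha, -0.32 and -0.38, were within the 0.56 that 2 SD of a difference allows, and that of Acaa2 from Hadhb, -0.90, was beyond 0.64. The highest ratios of the list belonged to less studied dehydrogenases. Acad12 had a log2 ratio of 0.70 (176 with estradiol and 108 untreated). Acad10 had 0.69 on its brightest probe set (281 with estradiol and 174 untreated) and -0.11 on the other. Acadsb, which acts on short branched chains, had 0.69 and was the third gene higher beyond 2 SD (564 with estradiol and 350 untreated). All 3 are dim, and the last 2 rest on probe sets of the cross-matching kind. The brightest probe sets of Hadh and Acaa2 are of that kind too, while the other Acaa2 probe sets are not.

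In peroxisomes, which shorten very long and branched chains, 12 of the 16 genes on the array were measured and the median log2 ratio was -0.04. Past 2-fold 1 gene was higher, where 2.04% of all measured genes were. Decr2, the peroxisomal counterpart of Decr1, was the 1 gene past 2-fold, at a signal of 522 with estradiol and 210 untreated (log2 ratio 1.31, or 2.49-fold higher). With the floor at the 70th percentile it kept only a bound of 0.71, short of 2-fold. Decr1 read almost level, as given above, and the difference between this pair was not tested. Acox2, an oxidase of branched chains, followed at 0.51, while Abcd4, a transporter gene of this family whose product is known from lysosomes, and Hacl1, a lyase of alpha-oxidation, were lowest at -0.49 and -0.41. Of the propionate and ketone body enzymes 5 of 6 were measured, 0 lay beyond 2 SD on their brightest probe sets and the median was 0.03. Oxct1, which activates ketone bodies, was highest at 0.15, but its other probe sets had 0.62, 0.67 and -0.05, and the first 2 of these were higher beyond 2 SD. Mmut, methylmalonyl-CoA mutase, followed at 0.09, and Mcee and Pccb, enzymes of propionate breakdown, were lowest at -0.17 and -0.05.

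Among regulators of the pathway, Ppard, Lpin1 and Prkab1 were higher with estradiol by 2-fold or more. Of 22 on the array 15 were measured, and the median log2 ratio was 0.10. Past 2-fold 3 were higher and 0 lower, where 2.04% and 1.10% of all measured genes were. Beyond 2 SD 4 were higher and 2 lower, where 8.62% and 7.23% of all measured genes were. Ppard, a nuclear receptor that activates fatty acid oxidation genes in muscle, read 1301 with estradiol and 280 untreated (log2 ratio 2.22, or 4.65-fold higher), and its second probe set was below the floor. Lpin1, a phosphatidate phosphatase that also coactivates PPAR alpha, read 2208 with estradiol and 965 untreated (log2 ratio 1.19), with 1.03 on its second probe set. Prkab1, the AMP-activated kinase subunit beta 1, read 7351 with estradiol and 3642 untreated (1.01, and 0.90 with a common median), with 1.18 on its second probe set. The fourth was Rxra, the partner receptor of the PPARs, added after its values were seen, with 322 in estradiol and 176 in untreated cells (log2 ratio 0.87), and its other probe sets were below the floor. The lowest were Nrip1, a corepressor of oxidative genes, at -0.85, and Pprc1, a PGC-1-related coactivator, at -0.63. The probe sets of Nrip1 ranged from -0.91 to 0.99 and do not agree in sign.

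Ppara, the PPAR of liver, Pparg, that of fat, and Ppargc1a, a coactivator of mitochondrial genes, were below the floor on both arrays. Ppargc1b, a relative of the last, read 629 with estradiol and 692 untreated (-0.14), and Esrra, an orphan receptor that works with these coactivators, read 355 with estradiol and 354 untreated (0.00). Of PPAR target genes outside beta-oxidation 9 of 19 were measured and 9 were below the floor on both arrays, among them Pdk4, Angptl4 and Cd36, named after their values were seen. None of those measured passed 2-fold, and the median log2 ratio was 0.01. Beyond 2 SD 1 was higher, where 8.62% of all measured genes were. That 1 was Plin2, a lipid droplet coat protein gene, at a signal of 9539 with estradiol and 6309 untreated (0.60). Ucp3, a mitochondrial carrier gene, had 0.39 with a bound of -0.27 on its second probe set. Lpl, lipoprotein lipase, and Plin3, another droplet protein gene, were lowest at -0.22 and -0.15, and the second Lpl probe set had -1.10.

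**Figure D4:**
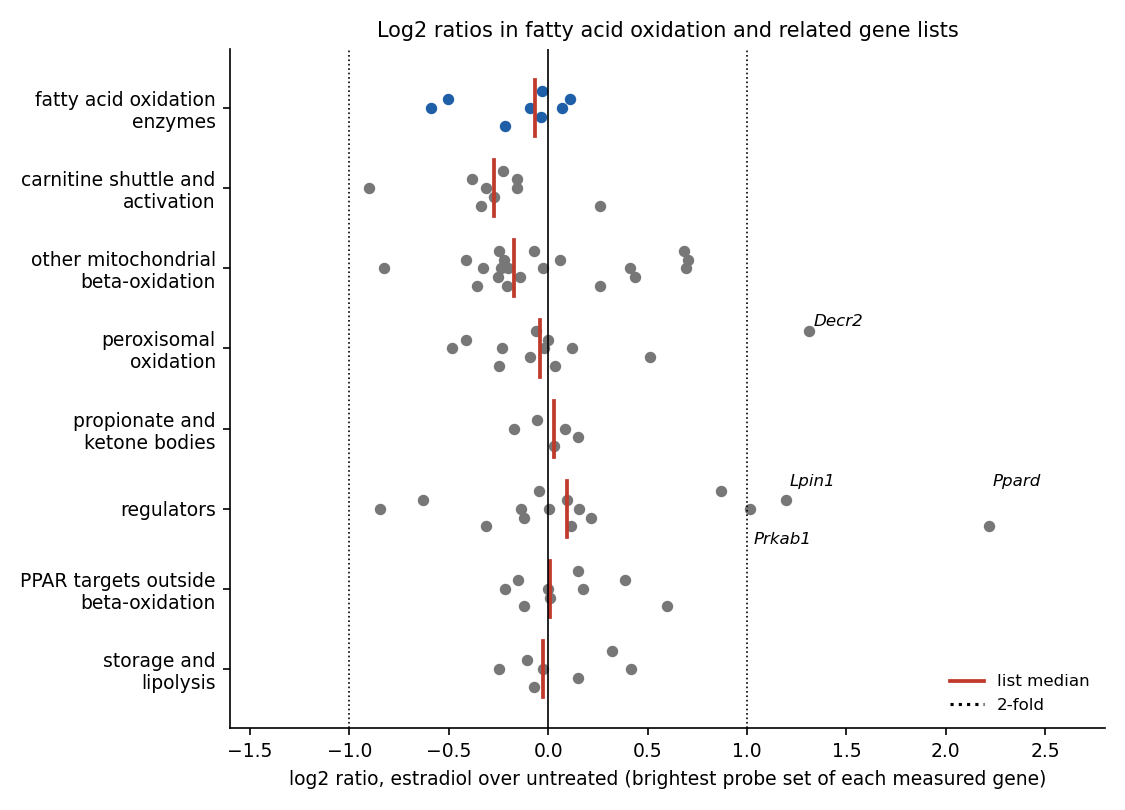
Log2 ratio of estradiol over untreated for each measured gene of the fatty acid oxidation enzymes (blue) and of 7 related lists (grey), with red bars at the list medians and dotted lines at 2-fold. The medians lie between -0.27 and 0.10, and Ppard, Lpin1, Prkab1 and Decr2 are the genes past 2-fold.

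The erythroid identity of the cells was checked on their markers. All 10 erythroid markers with a probe set of their own were measured, with a summed signal of 45851 with estradiol and 41523 untreated. The 1 globin gene among them, Hba-a1, was close to the floor at 136 with estradiol and 97.3 untreated. Single markers differed more than the sum. Beyond 2 SD 3 were higher by brightest probe set, 1 of them past 2-fold, and 1 was lower, all named after their values were seen. By that limit 8.62% of all measured genes were higher and 7.23% lower. Alas2, the erythroid enzyme that starts heme synthesis, read 3430 with estradiol and 283 untreated (log2 ratio 3.60), Slc4a1, the band 3 gene, had a log2 ratio of 0.86, Klf1, an erythroid factor gene, 0.62, and Gata2, a factor gene of progenitors, -0.45. Other probe sets gave 1.21 for Slc4a1, which is past 2-fold, and -0.56 for Gata2. Tfrc, another marker added after its values were seen, had 0.13, with 0.36 and 0.51 on its other probe sets, the last beyond 2 SD. Of tissues known for fatty acid oxidation, 1 of 5 hepatocyte markers was measured and 0 of 4 adipocyte markers, with hepatocyte sums of 306 with estradiol and 267 untreated and adipocyte sums of 126 with estradiol and 151 untreated. Alb, the 1 measured hepatocyte marker, was dim at 157 with estradiol and 129 untreated. The other blood lineages were dim as well, with 2 of 7 megakaryocyte markers and 2 of 7 macrophage and neutrophil markers measured, at sums of 840 with estradiol and 786 untreated for the first and 876 with estradiol and 796 untreated for the second. Mast cell and basophil markers, of which 6 of 11 were measured, summed to 6612 with estradiol and 13669 untreated. By 2-fold or more 1 gene was higher and 3 lower, where 2.04% and 1.10% of all measured genes were. Named after their values were seen, these were Tpsab1 (log2 ratio 4.61), and Gzmb (-3.11), Cpa3 (-2.53) and Ms4a2 (-1.40), so the sum hides opposite changes. The part of these erythroid and mast cell differences in the ratios of Cpt1a and Acadm was not tested.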

How the data were processed

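Total RNA of 2 samples was hybridised, 1 array per group, with biotin label per the labels' protocols. The deposited values are signal intensities on a linear scale, which the authors produced with GCOS per the submitters' processing notes, and both its settings and version are not given in the sources used here. On both arrays 500.0 was the mean of the deposited signals after 2% were trimmed from each end. Signals were rescaled to a common 2% trimmed mean over the 45037 probe sets that are not controls (factors 1.00006 for estradiol and 0.999941 for untreated).

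Probe sets were named through the platform annotation: 34945 had 1 gene symbol, 932 several and 9160 none. Of the first, 34741 matched the RefSeq table for GRCm38.p6 by Entrez ID, which changed 0 symbols. Probe sets with several symbols were not used.

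A log2 ratio needed both signals at or above the floor, and where only 1 reached it the other was raised to the floor, which gives a bound. With 1 array per group no test was made, and differences are described by folds of 2 and 1.5 and by 2 SD between probe sets of a gene (12514 probe sets of 4586 genes). The number of arrays limits the precision. Alternatives covered scaling, the floor, the fold and which probe set represents a gene. Named genes are the 9 members, the 2 highest and 2 lowest of each list, those past 2-fold and 6 preset regulators, and others are said to be added. The members and lists were chosen with earlier results of these data known. The steps were tested on simulated data. The tools were matplotlib 3.10.9, statsmodels 0.14.6, pandas 2.3.3 and numpy 2.4.6 under Python 3.11.15.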

Additional observations from a re-analysis of the deposited data

How the results depend on the processing

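Of 72 values of single fatty acid oxidation genes under the 9 alternatives in scaling, floor and probe set, 70 moved by under 1 SD and 3 took the other sign. Many of these values could hardly move. Neither other floor changed any of them, and genes with 1 measured probe set had no other to take. The count of 70 therefore says little about how stable the values are. Taking the probe set with the smallest ratio gave Cpt1a -0.27 and left 1 gene, Acadm, lower beyond 2 SD, and the median over probe sets gave Cpt2 0.19, in both cases because the probe sets of the gene differ. The other 2 changes of sign came with a common median, for Hadhb (-0.04) and Decr1 (-0.0015). Acadm ranged from -0.62 to -0.47, Cpt1a from -0.70 to -0.27 and the median of the 8 genes from -0.18 to -0.03. With a common median 160 genes of the whole array passed 2-fold higher and 161 lower, against 209 and 113.

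At 1.5-fold the lower genes numbered 1 among the 9, 1 in the carnitine list, 1 among other mitochondrial enzymes and 2 among regulators, and the higher genes 4 among regulators, 3 among other mitochondrial enzymes, 1 among peroxisomal genes and 1 among PPAR targets. At 3-fold 0 peroxisomal genes and 1 regulator were higher. With a floor at the 70th percentile 0 peroxisomal genes were higher, and with the 30th percentile 1 storage gene was. With no floor and 16 added, 2 carnitine list genes were higher, and 1 storage gene and 1 regulator lower. With a common median 1 carnitine list gene was lower. The other 179 of 194 counts stayed within 1.5 times, and 0 of 72 list medians moved by 1 SD. That SD is one of single ratios, so it is a wide limit for a median. The medians of the regulators, propionate and ketone body, PPAR target and storage lists took both signs under the alternatives. No paired analysis was possible because each group holds 1 array. Dim probe sets limit the reading of Ehhadh, Ppara and most PPAR targets.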

Other observations

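Genes that store fatty acids as triglyceride, and those of lipolysis, which releases them again, formed a further list. Of 10 genes on the array 7 were measured, with a median log2 ratio of -0.03, against 0.00 for all measured genes. None passed 2-fold, where 2.04% of all measured genes were higher and 1.10% lower, shares at which fewer than 1 of 7 would be past it. Abhd5, the coactivator of the main triglyceride lipase, was the highest and the 1 gene beyond 2 SD, at a signal of 1948 with estradiol and 1460 untreated (log2 ratio 0.42), but its second measured probe set had 0.01. By that limit 8.62% of all measured genes were higher. Dgat2, which completes triglyceride synthesis, had 0.32, with 0.10 on its second probe set. Dgat1, the other enzyme of that step, had -0.25 and Agpat1, an earlier enzyme of glycerolipid synthesis, -0.11, with 0.17 on its second probe set. Mgll, monoglyceride lipase, read 189 with estradiol and 91.9 untreated, the second below the floor, which gives a bound of 0.99.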
